A study of Mus musculus with 4 samples.

Results

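The 42 genes described here encode the antioxidant defence of the heart: the transcription factor Nrf2 and its inhibitor Keap1, enzymes that make and use glutathione, the thioredoxin and peroxiredoxin systems, superoxide dismutases, catalase, the NADPH-supplying pentose phosphate enzymes, metallothioneins and ferritin. They were chosen by symbol from a list of redox defence genes, and all 42 were among the 12408 genes listed in each file. RNA sequencing had been done on hearts of 4 C57BL/6 mice, each 3 months old. The CT baseline mouse carried WW45 flox/flox alleles and was sampled at baseline, and the CT TAC mouse carried the same alleles and had 4 weeks of transverse aortic constriction (TAC), surgery that tightens the aortic arch and raises the pressure the left ventricle pumps against. The cKO baseline and cKO TAC mice were WW45 flox/flox-alpha-MHC-CRE, so floxed WW45, a Hippo pathway scaffold listed as Sav1, is meant to be lost in cells where the alpha-myosin heavy chain promoter drives Cre, which are cardiomyocytes. Floxed alleles were thus shared by all 4 mice. The sources describe neither a sham operation nor Cre without floxed alleles, so TAC cannot be told apart from surgery as such, nor the deletion from Cre.

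Each group was 1 library from 1 mouse. A ratio between a pair of libraries therefore has no replicate check, and the 95% intervals given with ratios cover counting error only, not the spread between mice. Library sizes were 1587840 to 2796547 recovered reads, lowest in cKO baseline and highest in CT baseline. Sav1 had 49.3 CPM at baseline and 35.4 after TAC in CT, and 39.8 and 46.2 CPM in cKO, and the ratio of the library labelled cKO TAC to the library labelled CT TAC was 0.38 on the log2 scale (0.941 to 1.81-fold, an interval that includes 1). A lower Sav1 level was thus not seen there, but a value for the whole gene cannot show whether the floxed exons were lost. Genotype directions are those of the libraries as labelled. The heart label was met by the 7 cardiomyocyte markers, which summed to 84934 to 112481 CPM with none at 0. Of 4 atrial markers, Sln and Myl7 were not among the listed genes. Myl4 had 2.59 CPM and Nppa 129 CPM in CT baseline, so these markers did not show that atria were included. In whole tissue, a change in the number of cells of a type and a change in RNA per cell cannot be told apart.

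Nrf2, encoded by Nfe2l2, is held in the cytoplasm and sent for degradation by Keap1, whose reactive cysteines sense oxidants and electrophiles. When Keap1 is modified, Nrf2 enters the nucleus, pairs with small Maf proteins and binds antioxidant response elements of genes for quinone reduction, glutathione synthesis, thioredoxin recycling and NADPH supply. In the heart, mitochondria are the main source of superoxide, and dismutases, peroxiredoxins, glutathione peroxidases and catalase remove it and the peroxide formed from it.

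As a group the redox genes took 0.993% (CT TAC) to 1.15% (CT baseline) of each library's reads. The median member had a mean of 82.2 CPM over the 4 libraries, against 18.5 CPM for the median listed gene. Per kilobase of annotated exon, the ferritin heavy chain gene Fth1 stood highest, at a mean level of 3487 CPM per kb. It was followed by the cytosolic superoxide dismutase gene Sod1 (337 CPM per kb), the glutathione peroxidase genes Gpx1 (206) and Gpx3 (198) and the mitochondrial peroxiredoxin gene Prdx3 (186). Sulfiredoxin (Srxn1, 1.14 CPM per kb), Gstt1 (3.63), Gsta3 (4.37) and G6pdx (4.53) stood lowest. Of the 42 genes, 6, namely Txnrd1, Txnip, Gpx4, Prdx4, Prdx6 and Gsta3, had parts of reads shared with other places in some library, so their values are less certain.

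**Figure D1:**
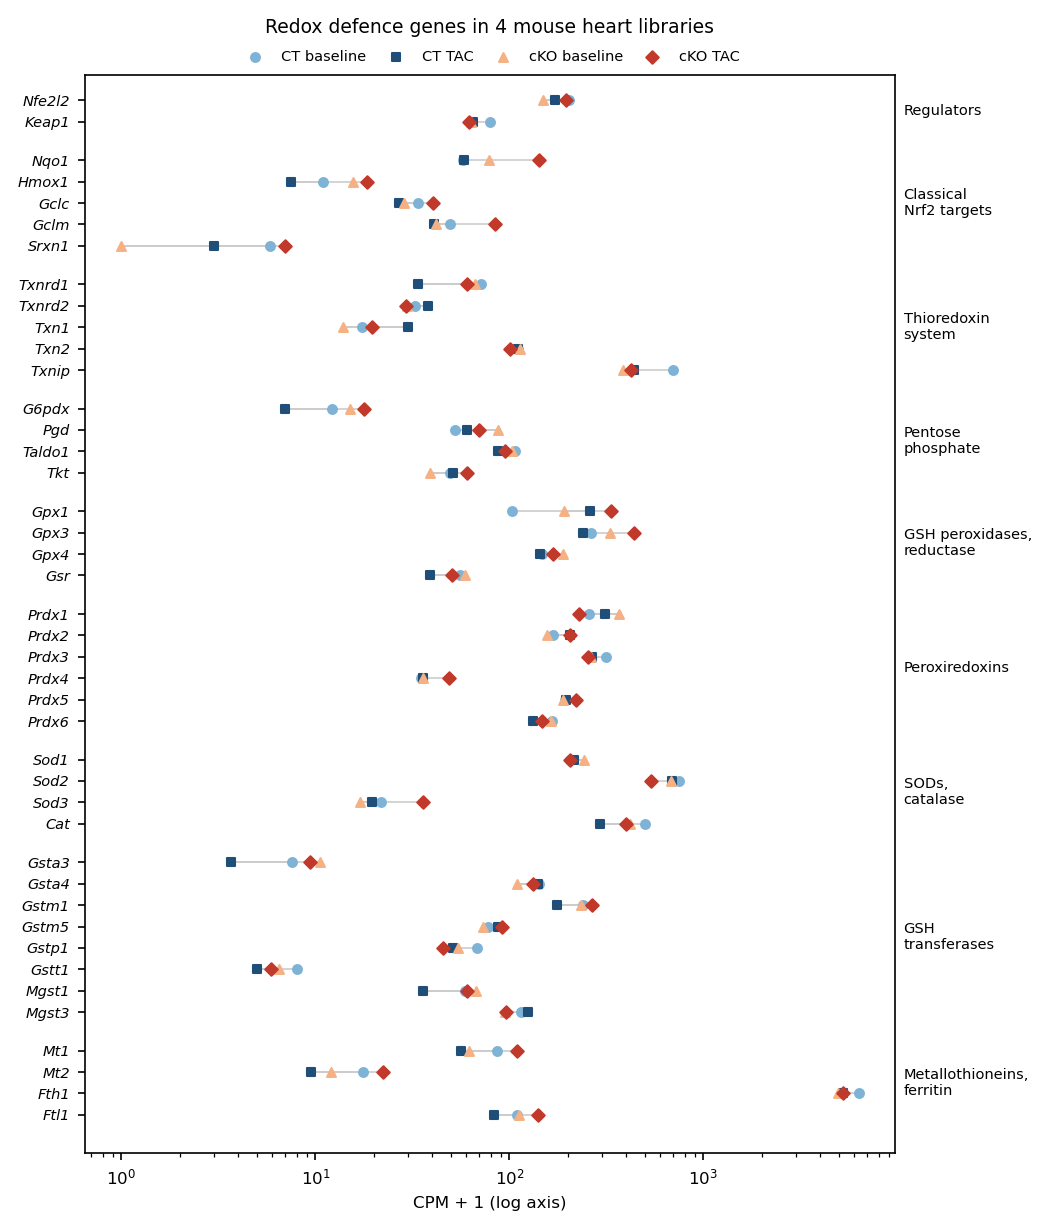
Level of each of the 42 genes in the 4 libraries, as CPM plus 1 on a log axis, grouped by role; each point is 1 library of 1 mouse and grey lines join the libraries. Most points of a gene lie close together, while Nqo1, Gclm and Sod3 have the cKO TAC point to the right of the rest and Txnrd1 has the CT TAC point to the left.

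Counted over all 42 genes, 6 were at least 2-fold higher in cKO TAC than in CT TAC with an interval that excluded 1, and none was lower by that much (2.09% of all genes were). They were Nqo1, Gclm, Hmox1, G6pdx, Gsta3 and Mt2. Over all listed genes 5.02% passed this rule in either direction and 2.93% as higher in cKO TAC. At 1.5-fold 13 members were higher and 1 (Txn1) lower, against 12.1% of all genes in either direction (6.07% higher, 6.03% lower). The median log2 ratio of the members in this pair was 0.23, against 0.01 over all genes, and 29 of 42 lay above 0 (69.0%, against 50.5% of all genes).

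At baseline, cKO against CT, 1 of 42 genes passed 2-fold, Srxn1, lower in cKO baseline, where 5.06% of all genes passed in either direction and 1.80% as lower. At 1.5-fold Gpx1 and Pgd were higher and Srxn1 and Txnip lower, against 10.8% of all genes (5.85% higher, 4.96% lower), and the median of the members was -0.11 against 0.00 over all genes. Between the CT libraries, 2 genes passed 2-fold, Gpx1 higher and Txnrd1 lower under TAC, where 10.7% of all genes passed (6.05% higher, 4.67% lower). At 1.5-fold 2 were higher, Gpx1 and Txn1, and 6 lower (Txnrd1, Txnip, Cat, Mgst1, Mt1, Mt2), against 21.2% of all genes (11.4% higher, 9.81% lower), and the median was -0.26 against 0.01. Between the cKO libraries, 3 passed 2-fold, all higher under TAC (Gclm, Srxn1, Sod3), against 6.51% of all genes in either direction (3.68% higher, 2.83% lower). At 1.5-fold 8 were higher, the 3 named with Nqo1, Tkt, Gpx1, Mt1 and Mt2, and 1 lower (Prdx1), against 14.0% of all genes (7.47% higher, 6.56% lower), with a median of 0.16 against a median near 0 over all genes. The share of members that passed was under that of all genes at both thresholds at baseline (2.38% and 9.52%) and between the CT libraries (4.76% and 19.0%). Between the cKO libraries it was 7.14% at 2-fold, near that of all genes, and 21.4% at 1.5-fold. Between the TAC libraries it was 14.3% and 33.3%. Each library enters 2 of these 4 comparisons, so they are not independent of each other.

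**Figure D2:**
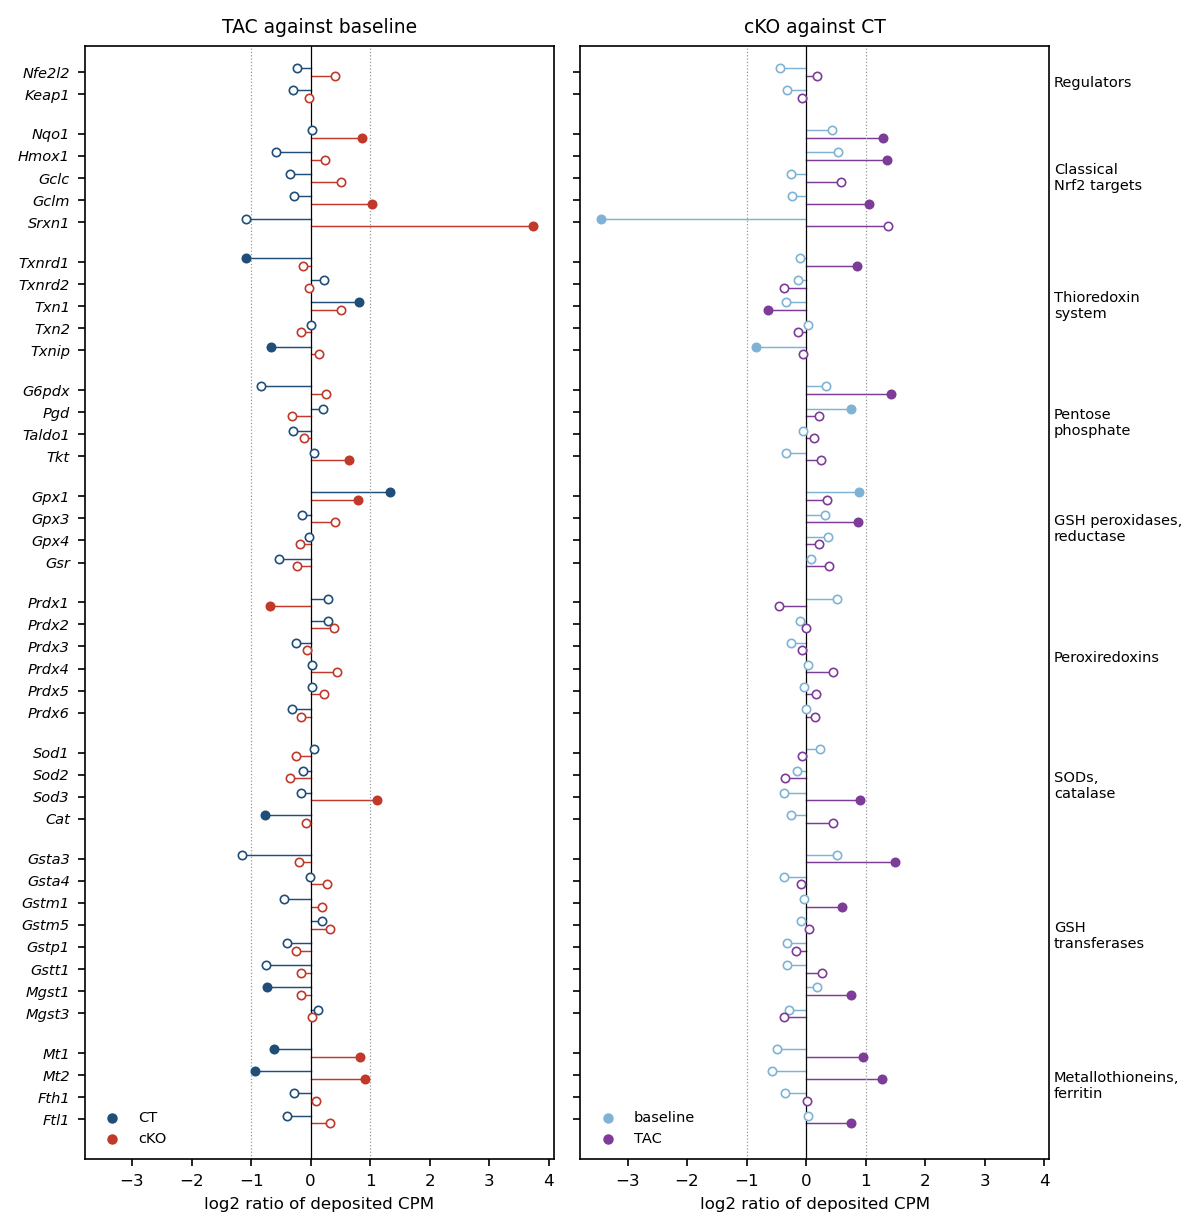
Log2 ratio of deposited CPM for each of the 42 genes, TAC against baseline in CT and cKO (left) and cKO against CT at baseline and under TAC (right); filled points are at least 1.5-fold apart with a counting interval that excludes 1, and dotted lines mark 2-fold. The filled points of cKO against CT under TAC lie to the right of 0 for 13 genes and to the left for Txn1.

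Nrf2 and Keap1 themselves differed little. Nfe2l2 had 201 CPM at baseline and 171 after TAC in CT, and 147 and 195 CPM in cKO. Keap1 had 78.2 CPM at baseline and 63.9 after TAC in CT, and 62.4 and 60.9 CPM in cKO. The largest ratio of Nfe2l2 between the libraries compared was -0.45 (log2, cKO baseline against CT baseline, fold interval 0.628 to 0.856), and neither gene passed 1.5-fold in any of the 4 comparisons. The TAC ratios of Nfe2l2 had opposite signs, -0.23 in CT (0.742 to 0.977-fold) and 0.40 in cKO (1.12 to 1.56-fold). Their difference was 0.63 (counting interval 0.32 to 0.94).

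Of the 5 classical Nrf2 targets, 3 (Nqo1, Gclm and Hmox1) were at least 2-fold higher in the cKO TAC library than in CT TAC, where 2.93% of all genes were. Gclc (0.58) and Srxn1 (1.38, 0.888 to 12.9-fold) did not pass, and the median log2 ratio of the 5 was 1.29 against 0.01 over all listed genes. This was not shared by the 23 further Nrf2 targets counted below, of which 1 passed in this pair, with a median of 0.04. Nqo1 (mm10 chromosome 8, 107388225 to 107403205), a quinone reductase, had 56.7 CPM at baseline and 57.4 after TAC in CT, and 77.1 and 141 CPM in cKO. The cKO TAC library stood above the other 3 libraries, by 1.29 against CT TAC (interval 1.96 to 3.08-fold) and 0.87 against cKO baseline (1.47 to 2.28-fold). Between CT TAC and CT baseline its log2 ratio was 0.02 (0.788 to 1.30-fold).

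Glutamate-cysteine ligase, the first and rate-limiting enzyme of glutathione synthesis, has a catalytic subunit (Gclc) and a modifier subunit (Gclm). Gclm (mm10 chromosome 3, 122245487 to 122267215) had 48.6 CPM at baseline and 39.9 after TAC in CT, and 41.0 and 83.8 CPM in cKO. It was 1.02 log2 units higher in cKO TAC than in cKO baseline (1.52 to 2.76-fold) and 1.06 higher than in CT TAC (1.59 to 2.78-fold). Gclc had 33.0 CPM at baseline and 26.0 after TAC in CT, and 27.5 and 39.2 CPM in cKO, with the same order at the top and bottom but no ratio past 1.5-fold with an interval that excluded 1. The number of Gclm reads for each Gclc read, with its 95% interval, was 1.47 (1.12 to 1.95) at baseline and 1.54 (1.07 to 2.23) after TAC in CT, and 1.49 (1.01 to 2.22) and 2.14 (1.61 to 2.87) in cKO. These intervals overlapped.

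Haem oxygenase 1 (Hmox1), which breaks down haem, had 27 reads at baseline and 13 after TAC in CT, and 24 and 32 reads in cKO, or 10.0 CPM at baseline and 6.49 after TAC in CT, and 14.7 and 17.4 CPM in cKO. It was 1.36 log2 units higher in cKO TAC than in CT TAC (1.37 to 5.57-fold), and both baseline libraries lay between. Macrophages, which express Hmox1 when they clear red cells, had summed levels of 402 CPM at baseline and 574 after TAC in CT, and 929.7 and 807 CPM in cKO over 8 of 8 markers, none at 0. Their part in the Hmox1 values was not tested. Srxn1, which repairs overoxidised peroxiredoxins, had 13 reads at baseline and 4 after TAC in CT, and 0 and 11 reads in cKO. With a floor of 3 reads put in place of 0 in the cKO baseline library, it was 3.26-fold higher in cKO TAC and 2.63-fold higher in CT baseline. These are not lower bounds. The counting interval of Srxn1 began at 2.23-fold for cKO TAC against cKO baseline and ended at 0.541-fold for cKO baseline against CT baseline. Its interval between cKO TAC and CT TAC, 0.888 to 12.9-fold, included 1.

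**Figure D3:**
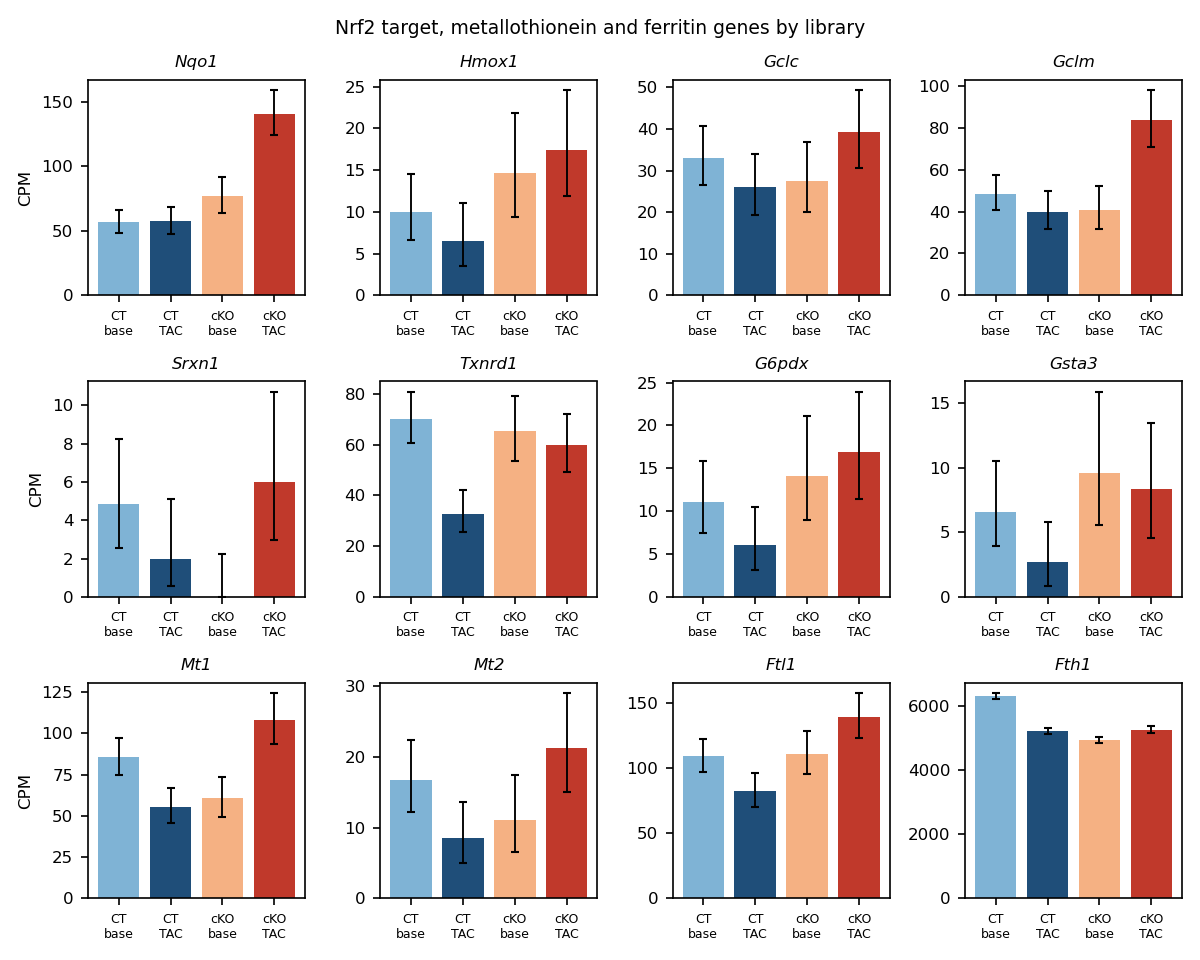
Level in CPM of 12 genes in the 4 libraries, CT and cKO at baseline (base) and after TAC; bars are single libraries and error bars are 95% Poisson counting intervals. The cKO TAC bar is the tallest for Nqo1, Gclm, Hmox1, Gclc, Srxn1, G6pdx, Mt1, Mt2 and Ftl1, the CT TAC bar is the shortest for Txnrd1 and Gsta3, and Fth1 is highest in CT baseline.

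Promoter windows from RefSeq (GRCm38.p6, the assembly of mm10), 250 bases before to 50 after an annotated start, were matched for 36 of the 42 genes. They were searched on both strands for the core of the antioxidant response element, TGACNNNGC, the core of the metal response element, TGCACNC or TGCGCNC, and the E-box core CACGTG. The antioxidant core was in 12 of 45 windows of these genes (26.7%) and in 12.4% of all 32851 windows. The genes were Nfe2l2, Gclm, Txnrd1, Srxn1, G6pdx, Pgd, Prdx1, Sod1, Gsta3, Gstm5, Mgst1 and Mt2. The metal core was in 13 of the 45 windows (28.9%, against 25.7% of all), and the E-box core in 1 (2.22%, against 7.15%), that of Prdx4, where it overlapped a metal core. The Nqo1 window held none of the 3, which says only that these letters are not in this window. The windows of 4 genes with the antioxidant core, each lowest in CT TAC or highest in cKO TAC, and those of both metallothioneins, are shown 5′ to 3′ in the direction of transcription. These were picked for their levels, and other genes with the core had other orders: Prdx1 and Sod1 were lowest in cKO TAC, Nfe2l2 was highest in CT baseline and Pgd was lowest there. Capitals mark the antioxidant and metal cores on either strand, and a match is a description, not a binding site.
Srxn1 (chr2:152105274-152105573, plus strand): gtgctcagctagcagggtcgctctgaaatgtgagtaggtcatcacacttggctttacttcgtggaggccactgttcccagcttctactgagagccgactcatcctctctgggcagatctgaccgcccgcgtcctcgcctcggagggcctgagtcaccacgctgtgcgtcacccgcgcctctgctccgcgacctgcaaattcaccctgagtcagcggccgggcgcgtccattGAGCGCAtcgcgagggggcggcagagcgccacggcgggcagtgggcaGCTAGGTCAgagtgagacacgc
Gclm (chr3:122245307-122245606, plus strand): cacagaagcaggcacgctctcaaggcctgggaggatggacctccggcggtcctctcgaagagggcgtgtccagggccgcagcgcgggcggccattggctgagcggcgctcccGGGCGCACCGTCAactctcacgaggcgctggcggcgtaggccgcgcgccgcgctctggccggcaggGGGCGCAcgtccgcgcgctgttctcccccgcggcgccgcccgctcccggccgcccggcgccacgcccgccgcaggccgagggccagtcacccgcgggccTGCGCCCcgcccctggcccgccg
Txnrd1 (chr10:82858956-82859255, plus strand): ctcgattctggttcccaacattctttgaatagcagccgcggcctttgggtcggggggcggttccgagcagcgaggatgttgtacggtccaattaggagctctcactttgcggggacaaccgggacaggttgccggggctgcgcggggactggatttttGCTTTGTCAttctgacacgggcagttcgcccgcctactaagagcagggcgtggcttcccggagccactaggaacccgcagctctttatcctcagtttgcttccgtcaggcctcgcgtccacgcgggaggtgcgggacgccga
G6pdx (chrX:74428831-74429130, minus strand): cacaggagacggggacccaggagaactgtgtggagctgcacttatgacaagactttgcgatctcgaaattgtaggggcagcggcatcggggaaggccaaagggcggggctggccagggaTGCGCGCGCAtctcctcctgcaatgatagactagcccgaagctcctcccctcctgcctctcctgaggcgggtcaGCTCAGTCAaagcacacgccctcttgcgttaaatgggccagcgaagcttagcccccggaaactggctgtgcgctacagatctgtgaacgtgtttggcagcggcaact
Mt1 (chr8:94178839-94179138, plus strand): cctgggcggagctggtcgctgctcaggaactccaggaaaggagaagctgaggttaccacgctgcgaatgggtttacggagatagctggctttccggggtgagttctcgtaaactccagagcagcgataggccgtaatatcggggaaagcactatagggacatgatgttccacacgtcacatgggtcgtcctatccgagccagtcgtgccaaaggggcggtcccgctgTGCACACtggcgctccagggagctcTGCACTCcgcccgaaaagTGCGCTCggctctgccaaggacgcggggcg
Mt2 (chr8:94172368-94172667, plus strand): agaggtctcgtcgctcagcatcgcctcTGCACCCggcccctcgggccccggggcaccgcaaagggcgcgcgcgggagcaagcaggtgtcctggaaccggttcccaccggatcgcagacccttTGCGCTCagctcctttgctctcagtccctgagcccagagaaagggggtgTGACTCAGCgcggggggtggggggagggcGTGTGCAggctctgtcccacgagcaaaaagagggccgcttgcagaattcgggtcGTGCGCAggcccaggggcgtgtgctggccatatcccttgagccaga
Counted from the start (+1), the antioxidant core lay at -134 to -126 in Gclm, where it overlapped a metal core, at -92 to -84 in Txnrd1, which has 3 windows, at -57 to -49 in G6pdx and at -79 to -71 in Mt2. In Srxn1 it lay after the start, at 29 to 37. Mt2 held 4 metal cores, the first at -223, and Mt1 held 3, of which 1 lay before the start of its window, at -23 to -17. The starts used for the Gclm, Txnrd1 and Mt1 windows lie after the gene starts given elsewhere (122245487, 82833951 and 94178883). Counted from that gene start, all 3 metal cores of Mt1 lie inside the gene.

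In the thioredoxin system, the cytosolic and mitochondrial reductases differed in how they varied. Txnrd1 (mm10 chromosome 10, 82833951 to 82897724), the cytosolic selenoenzyme that recycles thioredoxin, had 70.1 CPM at baseline and 32.7 after TAC in CT, and 65.4 and 59.8 CPM in cKO. CT TAC was the library apart, -1.09 log2 units from CT baseline (0.350 to 0.625-fold), while cKO TAC and cKO baseline differed by -0.13. Txnrd2, its mitochondrial counterpart, had 31.5 CPM at baseline and 36.9 after TAC in CT, and 28.7 and 28.3 CPM in cKO, and no ratio of it passed. The number of Txnrd1 reads for each Txnrd2 read was 2.23 (1.71 to 2.91) at baseline and 0.885 (0.630 to 1.26) after TAC in CT, and 2.28 (1.60 to 3.28) and 2.12 (1.51 to 3.00) in cKO. The CT TAC interval lay apart from the other 3.

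Txn1, cytosolic thioredoxin, had 16.3 CPM at baseline and 29.0 after TAC in CT, and 12.8 and 18.5 CPM in cKO, the highest value being in CT TAC, 0.81 log2 units above CT baseline (1.18 to 2.69-fold). Txn1 thus lay opposite to its reductase Txnrd1 in that pair. Txn2, mitochondrial thioredoxin, varied least of all 42 genes over the 4 libraries, from 100.1 to 112 CPM. Txnip, which binds and inhibits thioredoxin and restrains glucose uptake, had 694 CPM at baseline and 439 after TAC in CT, and 385 and 422 CPM in cKO. It was highest in CT baseline, with log2 ratios of -0.66 in CT TAC (0.584 to 0.686-fold) and -0.85 in cKO baseline (0.506 to 0.607-fold), and between the TAC libraries the ratio was -0.06.

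Of the 4 pentose phosphate enzymes, which regenerate NADPH for glutathione and thioredoxin reductase, G6pdx varied most. G6pdx, the first and rate-limiting enzyme, had 30 reads at baseline and 12 after TAC in CT, and 23 and 31 reads in cKO, or 11.1 CPM at baseline and 5.99 after TAC in CT, and 14.1 and 16.9 CPM in cKO. Its log2 ratio of cKO TAC to CT TAC was 1.42 (1.41 to 6.02-fold). Pgd, the next NADPH-producing enzyme, had 51.2 CPM at baseline and 59.4 after TAC in CT, and 86.2 and 69.1 CPM in cKO and was highest in cKO baseline (0.75 against CT baseline, 1.32 to 2.15-fold). Tkt, a transketolase of the non-oxidative branch, was 0.64 higher in cKO TAC (59.3 CPM) than in cKO baseline (37.9 CPM, 1.13 to 2.17-fold), and Taldo1, the transaldolase, ranged only from 85.9 to 105 CPM.

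Gpx1 (mm10 chromosome 9, 108339080 to 108340342), the abundant intracellular glutathione peroxidase, was the only member at least 1.5-fold higher under TAC in both genotypes. It had 103 CPM at baseline and 260.1 after TAC in CT, and 190.2 and 331 CPM in cKO. Both TAC libraries lay above both baseline libraries, by 1.34 log2 units in CT (2.19 to 2.94-fold) and 0.80 in cKO (1.52 to 2.002-fold), and cKO baseline lay 0.89 above CT baseline (1.57 to 2.19-fold). Gpx3, the secreted plasma form, had 263 CPM at baseline and 238 after TAC in CT, and 328 and 436 CPM in cKO and was highest in cKO TAC (0.87 against CT TAC, 1.63 to 2.06-fold). Gpx4, which reduces lipid peroxides and protects against ferroptosis, ranged from 143 to 189 CPM with no ratio that passed. Gsr, the reductase that regenerates glutathione, was lowest in CT TAC at 37.9 CPM and 49.5 to 58.1 elsewhere, again with none past 1.5-fold.

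The 6 peroxiredoxins, thiol peroxidases of cytosol, mitochondria and secretory pathway, gave 1 of 24 ratios past 1.5-fold, where 10.8% to 21.2% of all genes passed in each comparison. That was Prdx1, a cytosolic member, with 255 CPM at baseline and 311 after TAC in CT, and 365 and 226 CPM in cKO and a log2 ratio of -0.69 between the cKO libraries (0.546 to 0.705-fold). The mitochondrial Prdx3 ranged from 253 to 315 CPM, Prdx5 from 188 to 220.3, and Prdx6, the form with a single active cysteine, from 132 to 164. Prdx2, which is also abundant in red cells, had 167 CPM at baseline and 204 after TAC in CT, and 155 and 203 CPM in cKO. Prdx4 of the endoplasmic reticulum had 34.1 to 34.9 CPM in 3 libraries and 47.6 in cKO TAC.

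Of the 3 superoxide dismutases, the extracellular form varied most. Sod2, in the mitochondrial matrix, had 750.2 CPM at baseline and 684 after TAC in CT, and 678 and 536 CPM in cKO, and cytosolic Sod1 ranged from 204 to 241 CPM. Neither passed 1.5-fold. Sod3, the extracellular form, had 56 reads at baseline and 37 after TAC in CT, and 26 and 64 reads in cKO, or 20.8 CPM at baseline and 18.5 after TAC in CT, and 15.9 and 34.8 CPM in cKO. It was 1.11 log2 units higher in cKO TAC than in cKO baseline (1.37 to 3.60-fold) and 0.90 higher than in CT TAC (1.24 to 2.91-fold). The 7 fibroblast markers summed to 3630.4 CPM at baseline and 4696 after TAC in CT, and 4432 and 5667 CPM in cKO with none at 0, and their part in the Sod3 values was not tested. Catalase (Cat), the peroxisomal enzyme that splits hydrogen peroxide, had 498 CPM at baseline and 292 after TAC in CT, and 418 and 397 CPM in cKO. CT TAC was the low library, -0.77 against CT baseline (0.531 to 0.646-fold).

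Among the 8 glutathione transferases, which attach glutathione to electrophiles, 4 of 32 ratios passed 1.5-fold. Between the TAC libraries 3 of the 8 passed (37.5%, against 12.1% of all genes), and 1 between the CT libraries (12.5%, against 21.2%). The 4 ratios were those of Mgst1, in 2 comparisons, Gstm1 and Gsta3. Mgst1, a microsomal transferase and peroxidase, had 58.2 CPM at baseline and 34.9 after TAC in CT, and 66.1 and 59.3 CPM in cKO, with log2 ratios of -0.73 in CT TAC against CT baseline (0.446 to 0.801-fold) and 0.75 in cKO TAC against CT TAC (1.25 to 2.32-fold). Gstm1 had 239 CPM at baseline and 176 after TAC in CT, and 234 and 267 CPM in cKO (0.60 between the TAC libraries, 1.32 to 1.75-fold). Gsta3 had 17.67 reads at baseline and 5.33 after TAC in CT, and 15.67 and 15.33 reads in cKO and the widest interval of them (1.49 between the TAC libraries, 1.13 to 11.5-fold). Gsta4, which acts on the lipid peroxidation product hydroxynonenal, Gstm5, Gstp1, Gstt1 and Mgst3 did not pass in any comparison. Gstp1 ran from 44.6 CPM in cKO TAC to 66.7 in CT baseline and Mgst3 from 93.6 in cKO baseline to 124 in CT TAC. Gstm and Gsta genes have close copies beside them, so reads may have been split between copies.

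Both metallothioneins, cysteine-rich proteins that bind zinc and copper and scavenge radicals, had opposite TAC ratios in CT and cKO. Their genes lie close together on mm10 chromosome 8, Mt2 from 94172618 to 94173567 and Mt1 from 94178883 to 94180327, with the promoter windows shown. Mt1 had 85.6 CPM at baseline and 55.4 after TAC in CT, and 60.6 and 108 CPM in cKO, that is log2 ratios of -0.62 in CT (0.511 to 0.815-fold) and 0.83 in cKO (1.40 to 2.30-fold). Mt2 had 16.7 CPM at baseline and 8.49 after TAC in CT, and 11.0 and 21.2 CPM in cKO, from 45 reads at baseline and 17 after TAC in CT, and 18 and 39 reads in cKO, with ratios of -0.94 (0.273 to 0.906-fold) and 0.92 (1.08 to 3.58-fold). CT TAC was the lowest and cKO TAC the highest library for both, and between these the ratios were 0.96 and 1.27. The number of Mt1 reads for each Mt2 read was 5.13 (3.72 to 7.23) at baseline and 6.53 (3.90 to 11.6) after TAC in CT, and 5.50 (3.31 to 9.66) and 5.10 (3.61 to 7.39) in cKO, with overlapping intervals.

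Both ferritin chains, which store iron and so keep it from peroxide, followed different orders. Fth1, the heavy chain with ferroxidase activity, had 6306 CPM at baseline and 5218 after TAC in CT, and 4941 and 5263 CPM in cKO, highest in CT baseline. Ftl1, the light chain, had 109 CPM at baseline and 82.4 after TAC in CT, and 111 and 139 CPM in cKO, highest in cKO TAC and lowest in CT TAC (0.75 between them, 1.38 to 2.07-fold). The number of Fth1 reads for each Ftl1 read was 57.9 (51.6 to 65.2) at baseline and 63.4 (54.3 to 74.3) after TAC in CT, and 44.6 (38.5 to 52.0) and 37.8 (33.4 to 43.0) in cKO, and the cKO TAC interval lay below both CT intervals, while those of the baseline libraries overlapped. Ferritin genes have many processed copies in the mouse genome, which makes their values uncertain.

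In a description chosen after the values were seen, cKO TAC was the highest library for 17 of the 42 genes (40.5%, against 25.1% of all genes) and CT TAC the lowest for 18 (42.9%, against 26.3%). Both held for 9 genes, 21.4% against 6.75% of all genes: Ftl1, G6pdx, Gclc, Gclm, Gpx3, Gstm1, Hmox1, Mt1 and Mt2. The sum of the erythroid markers, of which 5 of 8 were measured, had the same lowest and highest library. It was 1643 CPM at baseline and 1099.9 after TAC in CT, and 2349 and 3367 CPM in cKO. Beta-globin genes set these sums, Hbb-bs and Hbb-b1 hold identical values and are both counted, and Slc4a1 had 0 reads in CT TAC. The remaining marker, Alas2, was highest in cKO TAC (54.4 CPM) but lowest in CT baseline (23.7 CPM, with 25.7 in CT TAC). The part of red cells in the redox gene values was not tested.

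The difference of the TAC ratio between the genotypes was at least 1 log2 unit, with a counting interval that excluded 0, for 4 members, each higher in cKO: Mt2 (1.85, 0.71 to 2.99), Mt1 (1.46, 0.98 to 1.93), Gclm (1.30, 0.72 to 1.88) and Sod3 (1.27, 0.38 to 2.16). Over all 11962 genes with reads in each library, 7.62% met this rule in either direction and 3.70% as higher in cKO. Srxn1 had 0 reads in cKO baseline and was left out. The most negative difference was that of Prdx1 (-0.97, -1.21 to -0.73). With 1 mouse in each cell of the design, this difference could not be tested against the spread between mice.

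**Figure D4:**
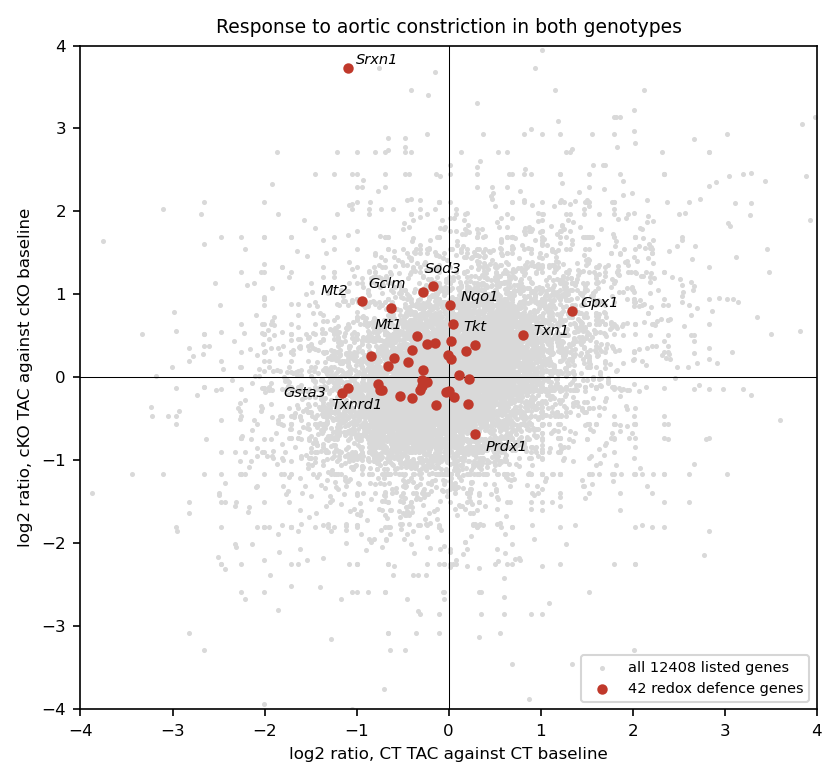
Log2 ratio of TAC to baseline in CT (horizontal) and cKO (vertical) for the 42 redox genes (red) over all 12408 listed genes (grey), of which 20 lie beyond the axes and are not drawn. Mt1, Mt2, Gclm, Sod3 and Srxn1 lie at upper left, Gpx1 and Txn1 at upper right and Prdx1 at lower right.

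A limma fit over all 4 libraries and all 12408 genes, with terms for genotype and TAC, set 2 libraries against 2 on 1 residual degree of freedom. That degree of freedom is the difference of the TAC ratio between genotypes, not a spread between mice of the same group. For TAC 1 member passed. Gpx1 rose by 1.07 on the log2 scale (SE 0.19, limma, Benjamini-Hochberg adjusted p = 0.0228), higher under TAC in both genotypes. Over all genes 1.82% passed in either direction (1.30% higher, 0.524% lower). At an unadjusted p under 0.05 limma gave 2 members for TAC, Gpx1 and Txnrd1 (4.76%, against 16.2% of all genes). The Gpx1 call was lost without the variance trend (adjusted p = 0.355), with 3 added reads (adjusted p = 0.0569) and without the genotype term (adjusted p = 0.207) in limma, and its adjusted p was 0.0137 to 0.355 over the alternatives. For genotype none of the 42 passed, against 0.0242% of all genes, and none passed without the variance trend. At an unadjusted p under 0.05, limma gave 7 of 42 for genotype (16.7%, against 7.77% of all genes). The 7 were Nqo1 (0.86, SE 0.24), Gpx1 (0.62, SE 0.19), Gpx3 (0.59, SE 0.19), Hmox1 (0.94, SE 0.37), G6pdx (0.87, SE 0.39) and Gsta3 (1.00, SE 0.45), higher in cKO, and Txnip (-0.45, SE 0.20), lower. The lowest adjusted p for genotype was 0.454 (limma), for Nqo1.

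Related genes outside the 42 were counted by the same 2-fold rule. Over all genes 10.7% passed it between the CT libraries and 6.51% between the cKO libraries. At baseline 5.06% of all genes passed, and between the TAC libraries 5.02%. Of 11 measured partners and adaptors of Nrf2, 1 passed 2-fold between the TAC libraries, the small Maf gene Maff, with 10 reads at baseline and 0.25 after TAC in CT, and 6 and 8.25 reads in cKO. Mafk, another small Maf gene, was 1.39 log2 units higher in cKO TAC than in cKO baseline (28 reads against 9). Of 23 further Nrf2 targets, 1 was higher and none lower between cKO TAC and CT TAC, the aldo-keto reductase gene Akr1b8 (10.0 CPM at baseline and 16.5 after TAC in CT, and 18.4 and 33.7 CPM in cKO), and the list's median log2 ratio was 0.04 there, against 0.01 over all genes. Between the cKO libraries the list's median was 0.35, and 18 of the 23 lay above 0 (78.3%, against 49.8% of all genes). The CT libraries gave a median of 0.15, with 13 of the 23 above 0 (56.5%, against 50.8% of all genes). Between the CT libraries 1 of the 23 was higher under TAC (Trim16, 2.17) and 3 lower (Gsta1, with 11 reads against 1, the iron exporter gene Slc40a1, -1.76, and the transporter gene Abcc4, -1.01), and between the cKO libraries 1 was lower (Abcc4, -1.06). At baseline Trim16 was higher in cKO (1.05) and Slc40a1 (-1.50) and Akr1b10 (-1.44) were lower.

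Of 25 other glutathione enzymes, 1 passed 2-fold between the TAC libraries (4.0%, against 5.02% of all genes). It was Chac1, which degrades glutathione, with 21 reads at baseline and 4 after TAC in CT, and 13 and 14 reads in cKO. Between the CT libraries 4 of the 25 were higher under TAC (Gstt3, Gpx7, Gpx8, Gstt2) and 2 lower (Chac1, Gstm3). That is 24.0% of the list, against 10.7% of all genes. Gstm3 was also lower under TAC in cKO (-1.47), and Gstm7 was lower in cKO baseline than in CT baseline (-1.22). Of 20 other thiol and methionine repair enzymes, 1 passed in any comparison, Msrb3, lower in cKO baseline than in CT baseline (-1.03). Of 11 further NADPH sources, 2 passed between the CT libraries (Aldh1l1, 1.54, and H6pd, -1.09) and 1 between the TAC libraries (Rpia, -1.09). These are 18.2% and 9.09% of the list, against 10.7% and 5.02% of all genes. Among 7 arrestin-domain relatives of Txnip and their regulators, Arrdc2 was lower than in CT baseline both in CT TAC (-1.98) and in cKO baseline (-1.12), the pairs in which Txnip was also lower. The list did not share this direction. In each of these pairs 3 of the 7 lay above 0, among them Arrdc3 (0.87 and 0.63), and only Arrdc2 passed 2-fold.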

How the data were processed

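Total RNA from mouse hearts was extracted with a column kit and sequenced from Illumina libraries, per the labels' protocols. CASAVA, HISAT2, edgeR and mm10 are named, with no version or role, per the submitters' processing notes. How reads were counted, and on which annotation, is not given in the sources used here. For 12408 genes per library the deposited unit is log2 CPM. On the linear scale the values lie on a grid, which shows 1 scaled added read and gives reads back. Between 88.6% and 89.0% of values per library were whole within 0.01, and 2449 genes had parts of reads.

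Log2 ratios are differences of deposited values and understate ratios of genes with few reads. Their 95% intervals are Clopper-Pearson intervals of the ratio of recovered reads, rounded, and those of levels are exact Poisson. They cover counting error only, and reads copied by PCR are not independent. To pass, a gene had to be at least 2-fold apart (alternative 1.5-fold) with an interval that excluded 1. The difference of 2 ratios has a normal interval from read counts. For genes at 0 reads a floor of 3 reads per library was used. The fit across genes used limma 3.58.1 in R 4.3.3 with a variance trend, 10.1 prior and 1 residual degrees of freedom, so its p-values rest mostly on variance shared across genes. The fit was also run on simulated counts, with the same spread for all genes and no difference of the TAC effect between genotypes. As the data need not have these features, that run cannot vouch for the p-values. Exon lengths come from GENCODE M21 basic, gene positions and promoters from RefSeq GRCm38.p6. The members, the related lists and the marker lists were chosen with earlier results of these data known. All 42 members are named, and of each related list at most 4 passing genes.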

Additional observations from a re-analysis of the deposited data

Results flagged for a closer look

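Mt1 and Mt2 had TAC ratios of opposite sign in the CT and cKO libraries, each with a counting interval that excluded 1, and more than 1 log2 unit apart. The cKO ratio minus the CT ratio was 1.46 for Mt1 (0.83 in cKO, -0.62 in CT) and 1.85 for Mt2 (0.92 in cKO, -0.94 in CT). Over all listed genes 140 (1.13%) met the same criteria. Each ratio is 1 mouse against 1 mouse, and the difference between genotypes was not tested against the spread between mice. Groups of 1 library allow no search for outlying samples.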

How the results depend on the processing

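Counts of members past the 2-fold rule, and of differences between genotypes (alternatives chosen after seeing the data), stayed within 1.5 times under scaling to total reads, scaling by the median of ratios and no added read. Scaling to total reads shifted every log2 ratio of cKO to CT by 0.09 at baseline and 0.10 under TAC, and left the Sav1 levels within counting error (also chosen after seeing the data). With a 1.5-fold threshold the counts became 8 between the CT libraries, 9 between the cKO libraries, 4 at baseline and 14 under TAC. With a mean CPM of at least 5 the baseline count became 0, since Srxn1 was left out. In the limma fit the 1 member called for TAC became 0 without the variance trend, with 3 added reads and without the genotype term. The cause was not tested. Of 733 single values and medians recomputed, 728 were kept. For ratios, medians and Sav1 levels this means a shift within counting error, and for limma values the same call. Calls of single ratios were not compared. Srxn1 ratios with the cKO baseline library, at 0 reads, could not move by this rule. Of the rest, 2 moved (Fth1, cKO against CT, to -0.26 at baseline and 0.11 under TAC with total reads), 3 lost their call (Gpx1 in limma) and none reversed. Leaving out 1 library leaves no residual degree of freedom, and the effect then equals the ratio of the remaining pair, as given for each pair. No paired analysis was possible because each group holds 1 library and the labels carry no replicate numbers. At these depths 3 reads are 1.11 to 1.84 CPM, which limits Srxn1, Gsta3 and Gstt1.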

Other observations

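Nox4, an NADPH oxidase that forms hydrogen peroxide, had 2 reads at baseline and 23 after TAC in CT, and 6.67 and 35 reads in cKO, or 0.741 CPM at baseline and 11.5 after TAC in CT, and 4.08 and 19.0 CPM in cKO, so it was higher in both TAC libraries than in the baseline library of the same genotype. Of 12 oxidant-producing genes, 2 were at least 2-fold higher (Nox4, Ncf4) and 2 lower (Xdh, -1.43, and Maob, -1.38) in CT TAC against CT baseline, with a counting interval that excluded 1. That is 33.3% of the list, against 10.7% of all genes. None passed between cKO TAC and CT TAC, where only 5.02% of all genes did. At baseline Rac2 (2.04), Nox4 and Ncf4 (6 reads against 1) were higher in cKO and Maob lower (-1.31), or 33.3% against 5.06% of all genes. Rac2 was lower in cKO TAC than in cKO baseline (-1.99), where 6.51% of all genes passed in either direction. Ncf4 and Rac2 are used by the oxidase of phagocytes, and the macrophage markers summed to 402 CPM in CT baseline and 929.7 in cKO baseline. Their part in these values was not tested.

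Among 16 zinc and iron handling genes, the transferrin receptor gene Tfrc, which brings iron into cells, passed 2-fold in each of the 4 comparisons. Of the list, 12.5% passed between the CT libraries and 6.25% in each other comparison, against 10.7% and 5.02% to 6.51% of all genes. Tfrc had 24.1 CPM at baseline and 104 after TAC in CT, and 55.1 and 25.6 CPM in cKO, so CT TAC was its highest library, where Ftl1 was lowest. Slc39a14, a zinc and iron importer, had 109.7 CPM at baseline and 44.3 after TAC in CT, and 71.0 and 53.3 CPM in cKO. Mtf1, the zinc sensor that activates metallothionein genes, ranged from 14.7 CPM in cKO TAC to 21.9 in CT baseline with no ratio past 2-fold, and the zinc exporter gene Slc30a1 had 26.7 CPM at baseline and 16.0 after TAC in CT, and 22.0 and 23.4 CPM in cKO.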
